A study of Mus musculus with 2 samples.

Results

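The Cyp2c29-like Cyp2c genes are 9 cytochrome P450 genes of the mouse Cyp2c subfamily that lie outside the group of Cyp2c40, Cyp2c67, Cyp2c68 and Cyp2c69. They were taken by symbol from the deposited table of expression levels, which lists 24054 genes, 16 of them with a Cyp2c symbol. The 9 members are Cyp2c29, Cyp2c37, Cyp2c38, Cyp2c39, Cyp2c44, Cyp2c50, Cyp2c54, Cyp2c55 and Cyp2c70. The members were named with earlier results of these data known, but their measured values were no part of the rule. The other 3 Cyp2c symbols, Cyp2c65, Cyp2c66 and the pseudogene Cyp2c53-ps, also lie outside that group but were not on the list of members. They are described at the end.

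RNA-seq was performed on liver of male C57BL/6 mice that were either WT or Pgrmc1 KO (Pgrmc1 -/Y), all aged 8 to 12 weeks. The KO allele was made by crossing a floxed Pgrmc1 line on C57BL/6N to Sox2-Cre mice, so exons 1 and 2 were lost in the whole body and not in hepatocytes alone. For each genotype, 2.5 μg of RNA per mouse from 5 mice was combined before library preparation, which left a single library of each. The comparison addresses whether loss of Pgrmc1, a heme-binding protein of the endoplasmic reticulum that associates with P450 enzymes, went along with different P450 transcript levels. With 1 pooled library per genotype the spread between mice was not measured, so no difference below has a replicate check and no p-value was computed.

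Cytochromes P450 of the Cyp2c subfamily are heme enzymes anchored in the endoplasmic reticulum, where they receive electrons from the reductase Por and, for some reactions, from cytochrome b5. In mouse liver they oxidize drugs and steroids, and several of them turn arachidonic acid into epoxides, which epoxide hydrolases then open. Many Cyp2c genes are under the control of the nuclear receptors CAR (Nr1i3) and PXR (Nr1i2) and of the hepatocyte factor Hnf4a. Cyp2c29 is a classical phenobarbital-inducible gene of pericentral hepatocytes, and Cyp2c70 makes the muricholic acids, the bile acids typical of mice and rats.

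Levels are given in TPM, the share of a gene among all transcripts after correction for transcript length, and changes as the log2 of the KO level over the WT level after 1 TPM was added to each. Counting intervals at 95% were taken from estimated reads in the authors' library means, and they cover counting error only, neither differences between mice nor the division of reads between similar genes. An interval given with a change or a ratio of sums is that of the ratio of these means, so it is not centred on the value in TPM. Estimated reads numbered 22086688 in KO and 29710410 in WT. The level of Pgrmc1, which checks the labels, was 0.68 TPM in the KO pool and 949.49 in the WT pool. Of the hepatocyte markers, Alb stood at 47241.8 TPM in the KO pool and 49729.1 in the WT pool, whereas the 6 lymphocyte markers summed to 2.35 and 2.78 TPM. In such bulk RNA, fewer cells of a type and less RNA per cell cannot be told apart.

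The members share a gene structure and, except for Cyp2c44, a place in the genome. On GRCm38 (mm10), 8 of the 9 members lie on chromosome 19 between 39007019 and 40187333, a cluster of 1.18 Mb that holds 15 Cyp2c symbols and 0 other protein-coding genes in GENCODE. Cyp2c44 (Cyp2c23 in current annotation, 44005022 to 44029208, minus strand) lies 3.82 Mb beyond it. Each member has 9 coding exons. Cyp2c29 spans 39269405 to 39330713 on the plus strand. Cyp2c37 (39992424 to 40012243, plus strand), Cyp2c54 (40037940 to 40073827, minus strand) and Cyp2c50 (40089688 to 40113950, plus strand) are neighbours, with Cyp2c70 (40153353 to 40187333, minus strand) after them.

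The coding sequences fall into close and distant relatives, which matters for reading the values because RSEM divides a read that matches several genes. Over 36 member pairs, the share of identical aligned bases ran from 64.1% to 96.1%. Cyp2c37, Cyp2c50 and Cyp2c54 form the closest set, with 96.1% identity between Cyp2c37 and Cyp2c50, 95.2% between Cyp2c50 and Cyp2c54 and 95.1% between Cyp2c37 and Cyp2c54. Cyp2c38 and Cyp2c39 shared 94.2%, and Cyp2c29 shared 89.1% and 89.5% with them. The name of the set is a label, as not every member is close to Cyp2c29. Cyp2c29 shared 68.6% with Cyp2c70 and 65.4% with Cyp2c44. It shared more with genes outside the set, 77.3% with Cyp2c67 and with Cyp2c68, 76.9% with Cyp2c69 and 73.1% with Cyp2c40. The first 90 coding bases of 5 members, all within the first exon, show these distances. They come from GENCODE transcripts on GRCm38, are written 5′ to 3′ on the coding strand, and carry capitals where the base differs from Cyp2c50:
Cyp2c50 (chr19:40089700-40089789, plus): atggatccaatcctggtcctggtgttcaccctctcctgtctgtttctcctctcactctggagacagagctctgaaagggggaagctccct
Cyp2c37 (chr19:39992440-39992529, plus): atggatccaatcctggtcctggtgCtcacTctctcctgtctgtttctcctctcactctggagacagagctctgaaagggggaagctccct
Cyp2c54 (chr19:40073722-40073811, minus): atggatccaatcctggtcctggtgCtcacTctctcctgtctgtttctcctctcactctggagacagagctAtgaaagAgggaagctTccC
Cyp2c29 (chr19:39287118-39287207, plus): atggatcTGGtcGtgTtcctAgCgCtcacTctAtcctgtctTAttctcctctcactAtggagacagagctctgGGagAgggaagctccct
Cyp2c70 (chr19:40187173-40187262, minus): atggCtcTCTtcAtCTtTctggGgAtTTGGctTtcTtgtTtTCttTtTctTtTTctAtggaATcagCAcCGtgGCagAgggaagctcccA

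In this stretch Cyp2c37 differed from Cyp2c50 at 2 of 90 bases, Cyp2c54 at 6, Cyp2c29 at 16 and Cyp2c70 at 35. Over the transcript with the longest coding sequence of each gene, 39.5% of the 100-base windows of Cyp2c37, 38.3% of those of Cyp2c50 and 26.3% of those of Cyp2c54 lay within 2 mismatches of a transcript of another Cyp2c gene, pseudogene included. These shares were 8.34% for Cyp2c38 and 13.4% for Cyp2c39, and 0 for Cyp2c29, Cyp2c44, Cyp2c55 and Cyp2c70. Windows found without a mismatch in another gene were fewer, 4.70% for Cyp2c37, 9.40% for Cyp2c50, 7.59% for Cyp2c54 and 0 for the other members. A longer annotated transcript of Cyp2c29, which was not used for these windows, shares an exon of 142 bases (39273229 to 39273370, plus strand) with the pseudogene Cyp2c53-ps, whose level was 2.23 TPM in the KO pool and 1.63 in the WT pool. The values of Cyp2c37, Cyp2c50 and Cyp2c54 depend in part on how reads were divided among them.

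**Figure D1:**
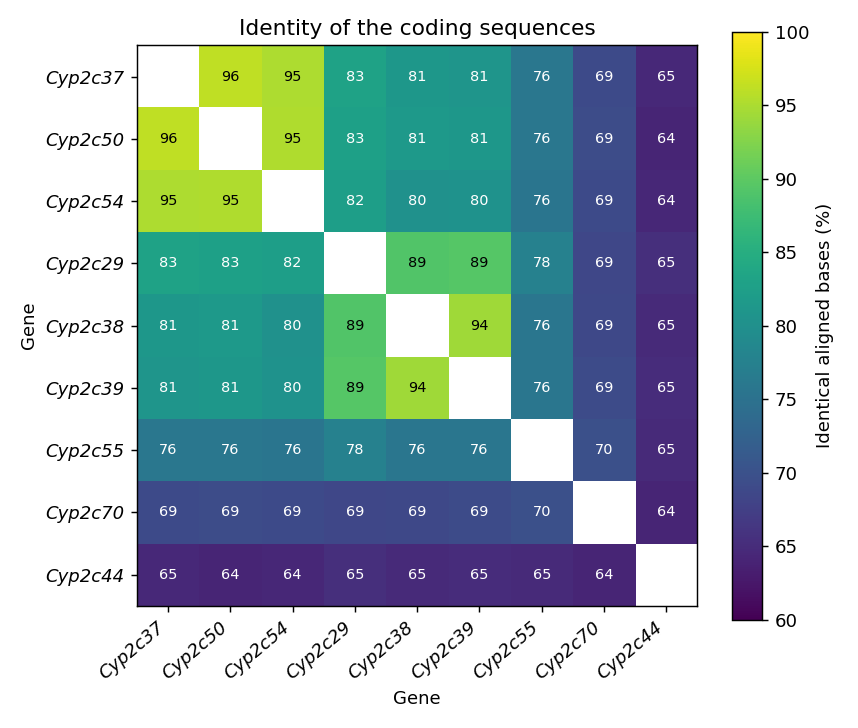
Share of identical aligned coding bases (%) for each pair of the 9 members, from 60 (dark) to 100 (light), with the value in each cell. Cyp2c37, Cyp2c50 and Cyp2c54 form the brightest block, from 95.1% to 96.1%, and Cyp2c44 is the most distant gene.

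Cyp2c29 was the most abundant member in both libraries, at 1620.18 TPM in the KO pool and 1267.23 in the WT pool, the 71st and the 88th highest level among all genes of the table. Cyp2c50 followed at 725.66 TPM in the KO pool and 581.02 in the WT pool. Cyp2c70 stood at 529.48 TPM in the KO pool and 531.66 in the WT pool. The first 2 genes were higher in the KO pool, while the levels of Cyp2c70 in the pools were almost equal. Cyp2c44, an arachidonic acid epoxygenase also known from kidney, was at 247.16 TPM in the KO pool and 239.41 in the WT pool. Cyp2c54 was at 224.75 TPM in the KO pool and 158.09 in the WT pool, and Cyp2c37 at 199.93 TPM in the KO pool and 144.09 in the WT pool. These 2 close relatives of Cyp2c50 had lower levels than it in each library. The remaining members were low in liver. Cyp2c38 was at 18.76 TPM in the KO pool and 17.16 in the WT pool, and Cyp2c55, better known from colon and kidney, at 11.39 TPM in the KO pool and 7.85 in the WT pool. Cyp2c39 was listed at 1.06 TPM in the KO pool and 0.89 in the WT pool, on 24 and 27 estimated reads.

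The order of the 9 levels was the same in the KO and the WT library, and within each library the counting intervals of neighbours in that order were apart. The closest neighbours in WT were Cyp2c50 and Cyp2c70, with a ratio of 1.09, and Cyp2c54 and Cyp2c37, with a ratio of 1.10. In KO the ratio of Cyp2c50 to Cyp2c70 was 1.37. Cyp2c44 and Cyp2c54 were 1.51-fold apart in WT and 1.10-fold apart in KO.

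**Figure D2:**
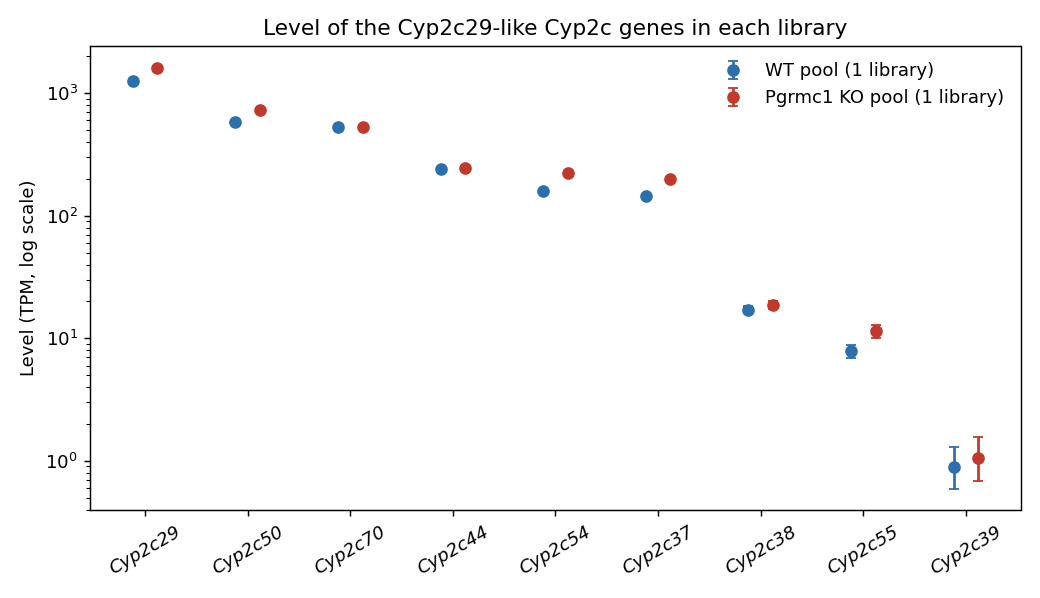
Level in TPM (log scale) of the 9 members in the WT pool (blue) and the Pgrmc1 KO pool (red), ordered by the WT level; bars are 95% Poisson intervals of the estimated reads and are smaller than the points for abundant genes. Cyp2c29, Cyp2c50, Cyp2c54 and Cyp2c37 lie higher in the KO pool, while the points of Cyp2c70 and Cyp2c44 are nearly level.

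In the KO pool 8 of the 9 members were above their WT level, as were 45.8% of the 11623 genes that averaged 1 TPM or more. That average was reached by 8 members, all except Cyp2c39, and 2 of these 8 passed a fold of 1.4 upward, against 1.21% of the 11623 genes. A fold of 0.6 or less was reached by 0 members and by 0.301% of those genes. The downward cut lies further from 0 on the log2 scale than the upward one, so falls were counted less readily than rises. Cyp2c54 rose by 0.50 on the log2 scale, or 1.42-fold (counting interval 0.47 to 0.58, on 5074 and 4769 estimated reads). Cyp2c55 rose by 0.49 and sat on the threshold itself, at 1.4-fold, and its interval of 0.31 to 0.80 was wide because it rests on 291 and 268 estimated reads. Cyp2c37 lay just below the threshold with a log2 change of 0.47, or 1.38-fold, and an interval of 0.43 to 0.55. These 3 genes could not be told apart by counting error, since their intervals overlap.

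Cyp2c29 and Cyp2c50 were higher in the KO pool by less. The log2 change of Cyp2c29 was 0.35, or 1.28-fold, with an interval of 0.35 to 0.39 on 36900 estimated reads in KO and 38568 in WT. That of Cyp2c50 was 0.32, or 1.25-fold, with an interval of 0.31 to 0.37. Neither interval reaches down to that of Cyp2c44 or Cyp2c70. Cyp2c44 changed by 0.05 (0.02 to 0.11) and Cyp2c70 by -0.01 (-0.03 to 0.04), and the sign of Cyp2c70 turned with the authors' means and after centring on the median gene, both 0.01. For Cyp2c38 the log2 change was 0.12 (-0.003 to 0.29). For Cyp2c39, which did not reach 1 TPM, it was 0.12 (-0.59 to 1.11), so that a change of either sign was not detectable at this depth. The intervals of 6 members lay above 0 and those of Cyp2c38, Cyp2c39 and Cyp2c70 held 0. For Cyp2c44 this depends on the scale, as its log2 ratio was 0.06 in the authors' means, to which the interval belongs, and 0.05 in TPM. Intervals narrow with depth, and they lay above 0 for 11.7% and below 0 for 13.4% of the 11543 genes that averaged 1 TPM or more and had library means. At 100 TPM or more they lay above 0 for 35% of genes and for 5 of 6 members.

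A threshold of 1.2-fold was passed upward by 5 members, Cyp2c29, Cyp2c37, Cyp2c50, Cyp2c54 and Cyp2c55, and by 5.39% of the genes that averaged 1 TPM or more. Of the 6 members that averaged 100 TPM or more, 4 passed 1.2-fold and 1, Cyp2c54, passed 1.4-fold, against 4.15% and 1.78% of the 1013 genes in that class of abundance. The median log2 change of the 8 members past the filter was 0.34, and that of all such genes was -0.01. Of all these genes 1.12% had a larger change than Cyp2c54, 1.28% a larger one than Cyp2c37, 2.65% a larger one than Cyp2c29 and 3.32% a larger one than Cyp2c50. The change of Cyp2c44 was exceeded by 32.5% of them and that of Cyp2c70 by 47.9%.

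Neighbours in the cluster could differ in their change. Cyp2c50 and Cyp2c70 are direct neighbours, and their intervals of 0.31 to 0.37 and -0.03 to 0.04 were far apart. Cyp2c29 and Cyp2c38 are neighbours as well, with 0.35 to 0.39 against -0.003 to 0.29. The 3 adjacent genes Cyp2c37, Cyp2c54 and Cyp2c50, which can exchange reads, summed to 1150.34 TPM in the KO pool and 883.2 in the WT pool, a log2 ratio of 0.38 (0.37 to 0.42). A division of reads within these 3 genes leaves that sum as it is. The sum of Cyp2c29 with its relatives Cyp2c38 and Cyp2c39 had a log2 ratio of 0.35 (0.34 to 0.39).

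**Figure D3:**
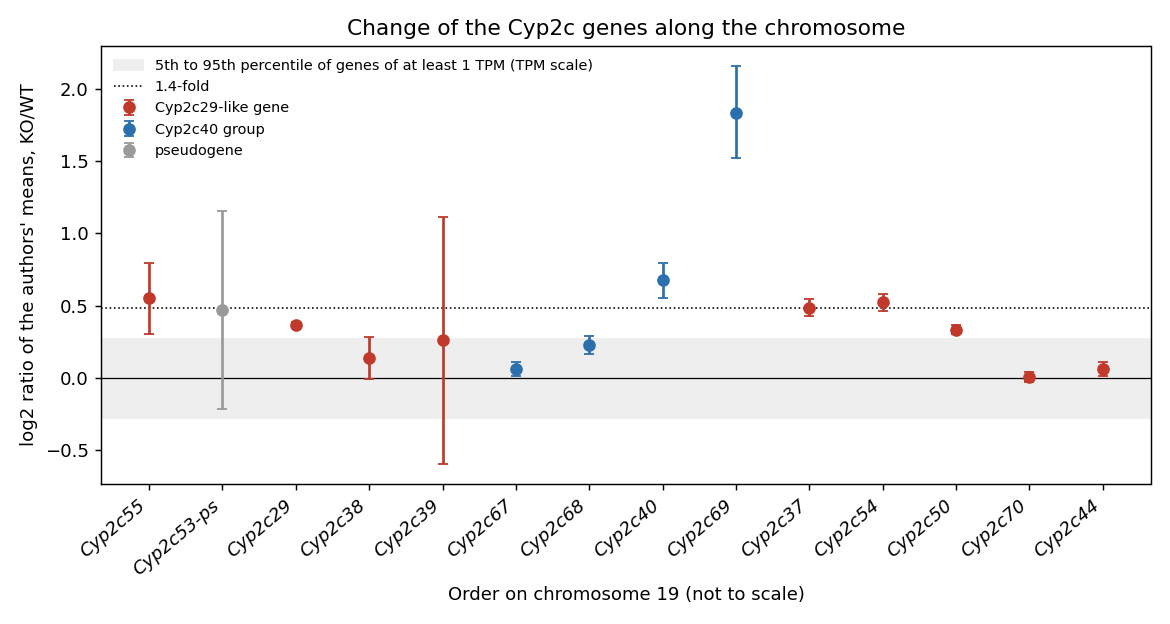
log2 ratio of the authors' library means, KO over WT, for 14 Cyp2c symbols in their order on chromosome 19 (Cyp2c29-like genes red, Cyp2c40 group blue, pseudogene grey); bars are 95% counting intervals, the band spans -0.27 to 0.27, the 5th and 95th percentiles over the genes averaging 1 TPM or more, and the dotted line is 1.4-fold. Cyp2c70 and Cyp2c44 sit at 0.01 and 0.06, while Cyp2c29, Cyp2c37, Cyp2c54, Cyp2c50 and Cyp2c55 lie above the band. The points of Cyp2c40, Cyp2c69 and Cyp2c53-ps, outside the set, lie above it as well. The band was taken from changes in TPM, not from the authors' means.

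Summed over the 9 members, the level was 3578.37 TPM in the KO pool and 2947.4 in the WT pool. This is a ratio of 1.21 and a log2 ratio of 0.28. From the authors' means the log2 ratio of the sums was 0.30, with a counting interval of 0.28 to 0.31. The difference of 630.97 TPM came mainly from Cyp2c29, with 352.95 TPM or 55.9% of it, and Cyp2c50, with 144.64 TPM or 22.9%. Cyp2c54 added 66.66 TPM and Cyp2c37 55.84 TPM. These 4 genes, grouped here after their values were seen, held 98.3% of the difference, and the other 5 members together held 807.85 TPM in the KO pool and 796.97 in the WT pool. Without Cyp2c29 the log2 ratio of the sum was 0.22. Cyp2c29 held 43.0% of it in WT and 45.3% in KO, and Cyp2c50 held 19.7% and 20.3%. The share of Cyp2c70 was 18.0% in WT and 14.8% in KO, and that of Cyp2c44 8.12% and 6.91%.

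**Figure D4:**
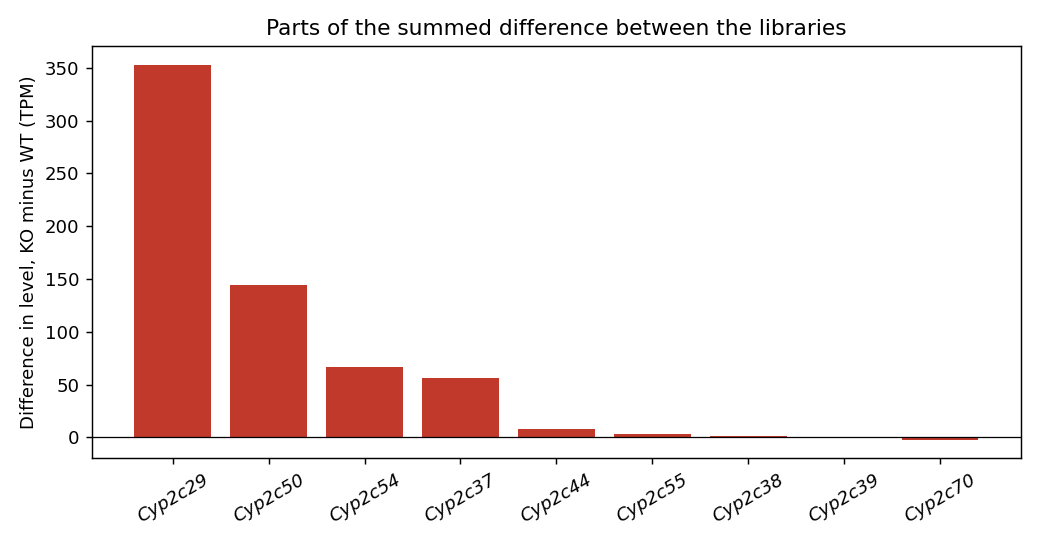
Difference in level between the libraries, KO minus WT in TPM, for each of the 9 members; bars start at 0 and carry no error because there is 1 library per genotype. Cyp2c29 (352.95 TPM) and Cyp2c50 (144.64 TPM) make up most of the summed difference of 630.97 TPM, and Cyp2c70 lies at -2.18 TPM.

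The members were a sizeable share of all P450 transcripts, 17.1% of P450 TPM in KO and 15.9% in WT, and 0.356% and 0.296% of the TPM of all genes. They held 26.3% of the difference in summed P450 TPM between the libraries. P450 genes outside the Cyp2c subfamily summed to 16764.8 TPM in the KO pool and 15058 in the WT pool, a log2 ratio of 0.15 beside 0.28 for the 9 members. Of the 48 such genes past the filter, 22.9% passed 1.2-fold upward and their median log2 change was 0.02. The Cyp2c40 group summed to 550.59 TPM in the KO pool and 485.82 in the WT pool, a log2 ratio of 0.18 (0.17 to 0.23). Within it Cyp2c67 changed by 0.05, Cyp2c68 by 0.21, Cyp2c40 by 0.65 and Cyp2c69 by 1.58. These 4 values are uncertain one by one, because 70.3% to 89.5% of the windows of each gene lay within 2 mismatches of another Cyp2c gene. Without a mismatch the shares were 19.8% to 44.1%. The differences between these groups could not be tested with 1 library each.

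Among 40 P450 genes outside the subfamily averaging 10 TPM or more, the 5 whose log2 change was closest to the 0.28 of the summed members were Cyp3a59 (0.24), Cyp2d40 (0.23), Cyp1a2 (0.34), Cyp2d13 (0.17) and Cyp2j9 (0.15). Cyp1a2, a pericentral enzyme of aromatic amine and caffeine oxidation, was the most abundant of them, at 576.97 TPM in the KO pool and 454.52 in the WT pool. Likeness here is a single ratio between 2 libraries.

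**Figure D5:**
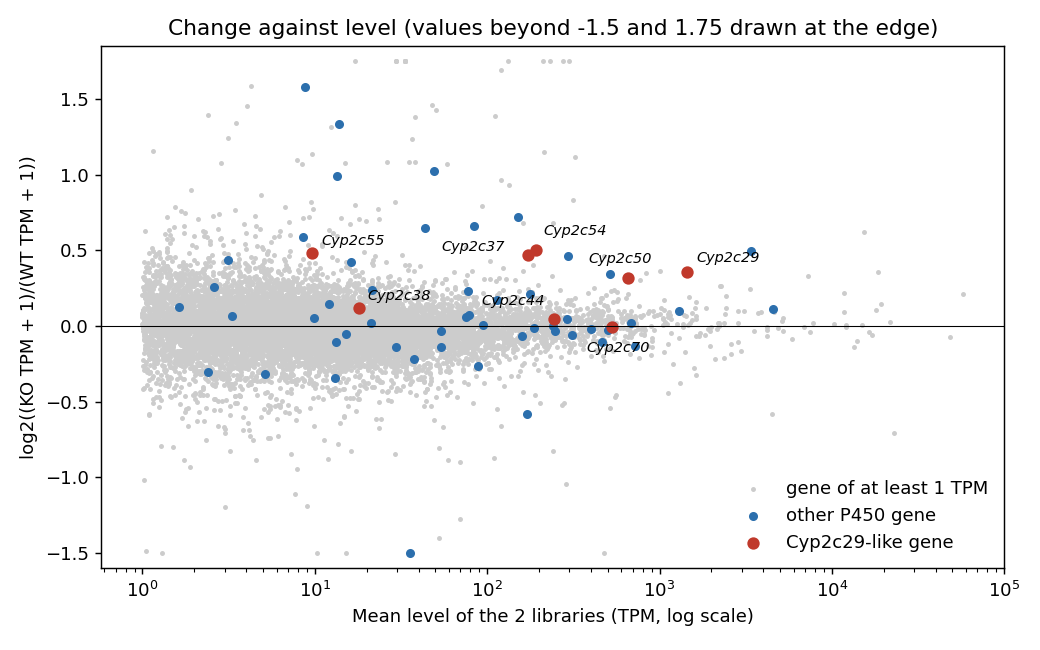
log2 change, KO over WT with 1 TPM added, against the mean level of the 2 libraries (TPM, log scale) for the 11623 genes past the filter of 1 TPM (grey), with other P450 genes (blue) and the 8 members past it (red). Cyp2c29, at a mean of 1443.7 TPM, and Cyp2c50, at 653.34 TPM, lie above 0.22, the 95th percentile of genes averaging 100 TPM or more, and Cyp2c44 and Cyp2c70 lie below it.

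Promoter sequence is described here, and its part in the changes was not tested. RefSeq promoters on GRCm38 (250 bases before the start site) were at hand for 7 of the 9 members, not for Cyp2c44 and Cyp2c54. The stretches below lie before the first annotated exon base at that start, 5′ to 3′ on the strand of the gene, and show 3 genes that were higher in the KO pool and Cyp2c70, which was not. The other members with a promoter, among them Cyp2c55, which was also higher, are not shown. Capitals mark matches to a nuclear receptor half-site (AGGTCA), an Hnf4a element (CAAAGTCCA) or a C/EBP core (TTGCNNAA), each searched on both strands:
Cyp2c29 (chr19:39286924-39287043, plus): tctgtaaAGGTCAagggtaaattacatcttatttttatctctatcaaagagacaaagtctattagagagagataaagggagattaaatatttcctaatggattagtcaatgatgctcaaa
Cyp2c37 (chr19:39992304-39992423, plus): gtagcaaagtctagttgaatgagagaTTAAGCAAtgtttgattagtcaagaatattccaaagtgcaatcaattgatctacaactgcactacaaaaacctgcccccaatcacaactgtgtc
Cyp2c50 (chr19:40089559-40089678, plus): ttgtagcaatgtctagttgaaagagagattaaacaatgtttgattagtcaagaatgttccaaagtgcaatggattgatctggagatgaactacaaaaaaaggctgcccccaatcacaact
Cyp2c70 (chr19:40187334-40187453, minus): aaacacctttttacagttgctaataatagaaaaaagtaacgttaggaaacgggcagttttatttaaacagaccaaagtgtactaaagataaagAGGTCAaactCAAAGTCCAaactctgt

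With the 250 bases aligned and gaps allowed, Cyp2c37 and Cyp2c50 were the most alike, at 84.3% identity, whereas Cyp2c29 and Cyp2c70 shared 46.7%. All pairs with Cyp2c55 or Cyp2c70 lay from 46.4% to 52.2%. The identity that unrelated promoters give in such an alignment was not measured. The exact Hnf4a element was found in Cyp2c70 and in no other member promoter, and 0.384% of the 32851 RefSeq promoters hold it. The nuclear receptor half-site stood in Cyp2c29, in Cyp2c70 and in 1 of the 2 promoters of Cyp2c39, against 14% of all promoters. That Cyp2c39 promoter, from 39347096, lies between Cyp2c29 and Cyp2c38, whereas the gene begins at 39510862 in GENCODE. The other Cyp2c39 promoter, from 39510572 and next to the gene, held no half-site. The C/EBP core was found in Cyp2c37, against 9.56% of all promoters. A forkhead element (TGTTTAC, both strands) was found in Cyp2c38 and in both Cyp2c39 promoters, against 3.17% of all. A TATA box (TATAAA, on the strand of the gene only) was found in Cyp2c29, Cyp2c38 and Cyp2c55, against 7.59% of all. Neither an HNF1 half-site (GTTAAT) nor a STAT element (TTCNNNGAA), searched on both strands, matched in these 250-base windows, and 6.43% and 7.02% of all promoters hold them. A match is a description of the letters, and none of these was tested for binding.

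Of the genes for reductases and cytochromes b5, Por and Cyb5b were at similar levels in the pools. Por stood at 179.35 TPM in the KO pool and 178.39 in the WT pool, and Cyb5b at 227.18 and 226.08 TPM. The cytochrome b5 gene Cyb5a was at 1678.54 and 1548.8 TPM, a log2 change of 0.12 (0.11 to 0.18). Cyb5r3, the cytochrome b5 reductase, was at 250.08 and 287.74 TPM, a log2 change of -0.20 (-0.23 to -0.14). Of the 6 genes of this list, which also holds Pgrmc2 (-0.25) and Alas1 (-0.04), 0 passed the fold rule in either direction, against 1.51% of all genes past the filter.

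Of 29 transcription factors and cofactors known to act on hepatic P450 genes, 27 averaged 1 TPM or more. Of these, 12 lay above 0 and 15 below, with a median log2 change of -0.03. The share above 0 over all genes past the filter was 45.8%, and 1.21% passed the fold rule upward. CAR (Nr1i3) was at 83.36 TPM in the KO pool and 72.46 in the WT pool, a change of 0.20 (0.11 to 0.31). PXR (Nr1i2) lay the other way, at 50.45 TPM in the KO pool and 59.93 in the WT pool, a change of -0.24 (-0.32 to -0.15). Rxra, the partner of both, changed by 0.04 and Hnf4a by -0.08. The repressor Bcl6 was the only gene of the list past the fold rule, with a rise of 0.71 from 13.4 to 22.55 TPM, and the pioneer factor Foxa2 was lowest at -0.48.

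Other known targets of CAR and PXR lay on both sides of 0. Of 33 listed genes, 32 reached 1 TPM, 14 lay above 0 and 18 below. Their median was -0.03, beside 0.34 for the 8 members. Among all genes past the filter, 45.8% lay above 0 and 1.21% passed the fold rule upward. The genes that passed the fold rule were Cyp2b10, the marker gene of CAR activation, which rose by 0.99 from 8.7 to 18.24 TPM, and Cyp3a11, that of PXR, which rose by 0.49 from 2808.29 to 3952.15 TPM. Gstm3, a glutathione transferase, was the lowest at -0.67, with 42.9 TPM in the KO pool and 68.62 in the WT pool. Its fold of 0.63 did not reach the downward cut, although this fall was larger on the log2 scale than the rise of Cyp3a11.

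The enzymes that open arachidonic acid epoxides had similar levels in the pools. Ephx2, the soluble epoxide hydrolase, was at 693.73 TPM in the KO pool and 717.19 in the WT pool, and the microsomal Ephx1 at 339.46 and 342.41 TPM. Of 36 listed genes of arachidonic acid metabolism, 24 reached 1 TPM, with a median of -0.03, 10 above 0 and 14 below. Over all genes past the filter, 45.8% lay above 0, 1.21% passed the fold rule upward and 0.301% downward. The fatty acid hydroxylase genes Cyp4a10 (0.72) and Cyp4a14 (0.66) passed the fold rule upward, 0 genes passed it downward, and Lta4h was lowest at -0.24. In bile acid synthesis and transport, the pathway in which Cyp2c70 acts, 13 of 20 genes lay above 0 with a median of 0.02. Cyp7a1, the rate-limiting enzyme, rose by 1.03 from 32.04 to 66.28 TPM, and Cyp39a1 was lowest at -0.34.

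Markers of lobular position and of other cell types also differed between the pools. For comparison, 45.8% of all genes past the filter lay above 0 and 1.21% passed the fold rule upward. Of 28 pericentral genes, 23 lay above 0, with a median log2 change of 0.11 and sums of 17023.4 TPM in the KO pool and 16017.6 in the WT pool. The highest was Tbx3, at 0.78, followed by Rnf43 (0.63) and Rhbg (0.49), all past the fold rule, and Gstm3 was the lowest. Of 26 periportal genes, 20 lay below 0, with a median of -0.13 and sums of 12433.1 TPM in the KO pool and 13787.4 in the WT pool. They ran from -0.51 for Apoa4 to 1.12 for G6pc, which was past the fold rule. All 6 Kupffer cell markers lay above 0 (sums 190.87 and 169.62 TPM, from 0.10 for Vsig4 to 0.19 for Clec4f) and all 6 endothelial markers below 0 (144.63 and 160.6 TPM, from -0.60 for Lyve1 to -0.04 for Stab2). Of 6 stellate cell markers 5 lay below 0 (247.06 and 269.36 TPM, from -0.26 for Des to 0.17 for Lrat). The 6 cholangiocyte markers summed to 62.04 and 66.96 TPM and the 6 hepatocyte markers to 77536 and 80430.7 TPM, with medians of -0.12 and -0.06. Of the cholangiocyte markers past the filter Epcam was lowest at -0.59 and Krt19 highest at 0.01. Among the hepatocyte markers Ass1 was lowest at -0.47 and Cyp2e1 highest at 0.11. The deposited TPM are posterior means that stay above 0 without reads, and by estimated reads the lymphocyte marker Nkg7 and the enterocyte marker Muc2 were at 0 in the KO pool. The part of these shifts in the Cyp2c values was not tested.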

How the data were processed

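The authors converted reads with CASAVA 1.8.2, aligned paired reads to mm10 with RSEM 1.2.09 and Bowtie, and deposited posterior mean TPM for 24054 genes, with column totals of 1005325 (KO) and 994702 (WT). They also deposited EBSeq output for 16318 genes: per library a signal, which is its estimated reads over a size factor and not per length, and further fold changes and probabilities. The last 2 are the authors' own comparison and were not used. A kit that keeps strand was used. The members and gene lists were chosen with earlier results of these data known.

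From TPM, log2 changes with a pseudocount of 1 TPM were taken. Genes averaging 1 TPM or more with a fold of 1.4 and up, or 0.6 and down, counted as past the fold rule, with the fold thresholds of the study but not its criterion on probability, and with the filter on TPM added here. The most frequent value of each signal column, 1.16 in KO and 0.860 in WT, was taken as 1 read. Within 0.02, 78.4% and 75.0% of values were whole reads, so the read numbers are approximate and no p-value was computed from them. Clopper-Pearson intervals of the ratio of means and Poisson intervals of levels, at 95%, used estimated reads rounded to whole numbers. Whether such a ratio interval holds 0 is an exact binomial comparison of these reads and covers counting error only. Named were all members, other Cyp2c symbols, Pgrmc1, Por, Cyb5a, Cyb5b, Cyb5r3, Nr1i3, Nr1i2, Rxra and Hnf4a, the highest and lowest gene of each list and those past the fold rule, and the 5 nearest P450 genes. Other genes named (Alb, Alas1, Ephx1, Ephx2, Nkg7, Vil1, Lct, Alpi, Slc5a1 and Muc2) were chosen after their values were seen. P450 genes are symbols of Cyp and a number, without pseudogenes. List symbols absent from the table were matched through RefSeq synonyms (Cyb5a as Cyb5, Adgre1 as Emr1). Coding sequences, 100-base windows and positions came from GENCODE M21 and promoters from RefSeq, both on GRCm38. The code for calls and intervals was run on simulated Poisson counts with folds beyond both thresholds. Such counts hold neither spread between mice nor division of reads between genes, so the run checks the code only. Alternatives concerned the pseudocount, table, scaling, filter, threshold and members summed. Python 3.11.15, numpy 2.4.6, pandas 2.3.3, scipy 1.17.1, Biopython 1.88 and matplotlib 3.10.9 were used.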

Additional observations from a re-analysis of the deposited data

How the results depend on the processing

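No paired analysis was possible because there is 1 library of either genotype and no replicate to pair. Leaving out a replicate was not possible for the same reason. The log2 ratio of the summed members was 0.28, and it was 0.30 with the authors' means and 0.22 without Cyp2c29, the most abundant gene; with 1 TPM added, over all Cyp2c symbols, after centring on the median gene and after leaving the 50 most abundant genes out of the scaling it moved by less than its counting error. The number of members past the fold upward, 2, became 5 at 1.2-fold, 0 at 1.5-fold and 0 at 2-fold, and 3 with the authors' means, in which Cyp2c37 passes, and 1 with a mean of at least 10 TPM, a filter that Cyp2c55 does not reach. No alternative gave a member past the fold downward. Of 42 single values of members under the alternatives, 38 moved by less than their counting error. The other 4 were sums with close relatives, 0.38 in place of the values of Cyp2c37, Cyp2c50 and Cyp2c54, and 0.35 in place of that of Cyp2c38. The median of the hepatocyte markers was -0.06, and -0.0401 with the authors' means and -0.0427 after centring. That of the enterocyte markers, 0.13 from 1 gene, was 0 without a filter, which lets in 5 genes near 0. Depth limits Cyp2c39, Cyp2c55 and Cyp2c38, while pooling limits what can be said of the abundant members.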

Other observations

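The 3 remaining Cyp2c symbols were at the lower end of the table. Cyp2c65 was listed at 0.08 TPM in the KO pool and 0.03 in the WT pool, on 1 and 0 estimated reads, and Cyp2c66 at 0.05 and 0.04 TPM. Both genes are known from the intestine. Of 6 enterocyte markers, Vil1, Lct, Alpi, Slc5a1 and Muc2 lay under 1 TPM in both libraries, while Fabp2, at 140.37 and 128.09 TPM, did not. The pseudogene Cyp2c53-ps, whose annotated span overlaps that of Cyp2c29 by 5.58 kb on the same strand, reached 2.23 TPM in the KO pool and 1.63 in the WT pool, a log2 change of 0.30, with an interval of -0.21 to 1.15 that holds 0.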
